A study of Mus musculus with 8 samples.

Results

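The genes described here are the 7 genes of the MHC class II pathway H2-Aa, H2-Ab1, H2-Eb1, H2-DMa, H2-DMb1, Cd74 and Ciita, measured by RNAseq in spleen neutrophils of WT and Cxcr2-/- mice. They were taken from the 55414 gene identifiers of the count tables by their gene symbol in the GENCODE M21 annotation, and all 7 passed the filter on low counts that left 16778 genes for testing. The question asked of them was whether their levels differ between the genotypes, and how their levels stand beside those of markers of other spleen cells. Neutrophils were sorted as CD45+ CD11b+ Ly6G+ F4/80- cells after positive selection for CD11b from 4 WT and 4 Cxcr2-/- mice, with 1 library per mouse. All mice were 10 weeks old, of the FVB strain, with no treatment named, and kept in a SOPF facility, that is, free of specific and opportunistic pathogens. The Cxcr2-/- mice lack the chemokine receptor Cxcr2 in every cell, not in neutrophils alone. The mutant line had been crossed repeatedly into FVB, and nothing in the sources used here says that the WT mice were littermates.

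MHC class II molecules present peptides of proteins taken up from outside the cell to CD4 T cells. An alpha and a beta chain form the peptide groove, the invariant chain Cd74 holds the groove closed and guides the complex to the endosome, and H2-DM then exchanges the remnant of Cd74 for antigenic peptides. Ciita, the class II transactivator, switches the whole set on by joining the factors RFX and NF-Y on a pair of promoter elements, the X and Y boxes. In the spleen these genes are high in B cells, dendritic cells and macrophages, and neutrophils at rest are known for low levels. FVB mice carry the H2q haplotype and do not display the I-E molecule, of which H2-Eb1 encodes the beta chain.

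The libraries held 34220182 to 46233555 counts on genes. Cxcr2 had 1719 to 2252 CPM (counts scaled to a common library size) in the WT libraries and 12.9 to 20.7 CPM in the Cxcr2-/- libraries, the direction that the labels give. Markers of neutrophils, such as S100a8, S100a9, Ltf, Ngp and Camp, summed over 10 genes to 45870 to 62680 CPM in WT and to 103300 to 133800 CPM in Cxcr2-/- libraries. Of these genes 8 were called higher and 1 lower, Csf3r, the receptor of the growth factor G-CSF, which fell by 1.06 on the log2 scale (adjusted p = 1.11e-05 in edgeR), and Itgam was not called. All levels below are CPM scaled by the TMM factors of edgeR. These are bulk samples, in which fewer cells of a type and less RNA per cell cannot be told apart. By flow cytometry the paper found fewer CD101+ and more Ly6Glo cells among Cxcr2-/- spleen neutrophils, and read them as less mature. Whether the summed neutrophil markers follow the stage of the cells or the purity of the sort was not tested. Genes were called at an adjusted p under 0.05 (quasi-likelihood test of edgeR, adjusted by Benjamini-Hochberg over all 16778 genes). By that rule 44.7% of all genes tested were called, 21% as lower and 23.7% as higher in Cxcr2-/- libraries, so a called gene is common in this comparison.

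H2-Aa encodes the alpha chain of the I-A molecule and lies on chromosome 17 (chr17:34282744-34287823, GRCm38, minus strand). Its promoter and that of H2-Eb1 (chr17:34305867-34316674, plus strand) are shown because class II chains are known for control through the X and Y boxes. These are also the 2 members that passed the test. Each stretch covers the 150 bases just before the start of the gene on the coding strand, from RefSeq's promoter sequences on GRCm38.p6, at chr17:34287824-34287973 and chr17:34305717-34305866. Capitals mark a match to the X motif CTNNNAAC and to the Y motif ATTGG.
H2-Aa: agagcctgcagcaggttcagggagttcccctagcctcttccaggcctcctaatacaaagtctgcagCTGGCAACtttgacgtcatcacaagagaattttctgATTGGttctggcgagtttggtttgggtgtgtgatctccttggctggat
H2-Eb1: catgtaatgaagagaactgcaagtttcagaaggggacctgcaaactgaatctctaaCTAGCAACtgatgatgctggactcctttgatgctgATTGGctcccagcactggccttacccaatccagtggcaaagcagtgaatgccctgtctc
The X motif begins at -84 and the Y motif at -48 in H2-Aa, and at -94 and -59 in H2-Eb1, counted from the start of the gene, so that the motifs begin 36 and 35 bases apart. An X motif followed by a Y motif on the same strand, with starts 20 to 40 bases apart and either strand searched, was found in 0.928% of 32851 promoter windows of 300 bases. The motifs taken singly do not set these promoters apart, since the X motif was in 41.1% and the Y motif in 37.4% of the windows. The pair was also found in H2-DMb1 and, among the other class II chains, in H2-DMb2 and H2-Ob, and it was not found in the windows of H2-DMa, H2-Oa and H2-Eb2. H2-Ab1, Cd74, Ciita and H2-Ea-ps were not searched. These are matches of letters, and no binding was measured.

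In the WT libraries H2-Aa reached 137, 324, 129 and 59.0 CPM in replicates 1 to 4. In the Cxcr2-/- libraries it reached 67.1, 30.7, 74.2 and 104 CPM. WT replicate 2 stood highest and Cxcr2-/- replicate 2 lowest, and the groups overlapped because WT replicate 4 lay below 3 of the Cxcr2-/- libraries. H2-Aa was lower in Cxcr2-/- neutrophils, from 162 ± 113 to 69.0 ± 30.02 CPM (mean ± SD, n = 4 mice per group), a log2 fold change of -1.23 (SE 0.43, adjusted p = 0.0349 in edgeR). The call was lost when WT replicate 1 (adjusted p = 0.0514), WT replicate 2 (0.150), Cxcr2-/- replicate 1 (0.0649), Cxcr2-/- replicate 2 (0.0823) or Cxcr2-/- replicate 3 (0.0539) was left out, and the change without WT replicate 2 was -0.67 on the log2 scale. DESeq2, the tool of the study's methods, did not call H2-Aa (adjusted p = 0.0842).

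H2-Ab1, the beta chain that pairs with H2-Aa, lies at chr17:34257689-34269419 on the plus strand. It had 77.5, 194, 67.3 and 39.8 CPM in the WT libraries and 45.5, 16.7, 50.4 and 60.8 CPM in the Cxcr2-/- libraries. The order of the 8 libraries was that of H2-Aa, with WT replicate 4 again below 3 of the Cxcr2-/- libraries. Its log2 fold change was -1.12 (SE 0.44, adjusted p = 0.0529 in edgeR), which missed the threshold. Without WT replicate 4 or Cxcr2-/- replicate 4 it passed (adjusted p = 0.0183 and 0.0336).

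H2-Eb1 was the one member whose groups did not overlap. It had 6.96, 10.5, 6.23 and 3.9 CPM in the WT libraries and 2.05, 1.05, 2.11 and 2.77 CPM in the Cxcr2-/- libraries. Every Cxcr2-/- library thus lay below the lowest WT library, a separation that 19.1% of all genes tested also showed in this direction, and 22.5% in the other. The log2 fold change of H2-Eb1 was -1.79 (SE 0.32, adjusted p = 6.23e-04 in edgeR). It was called with each library left out in turn, with adjusted p from 2.87e-04 to 0.00225 and changes from -2.0 to -1.53 on the log2 scale. Of its 18 alternative fits, 16 called it, and both exceptions used a marker level of another cell type as a covariate, as given below. The level rests on few reads, 38 counts in the lowest library.

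**Figure D1:**
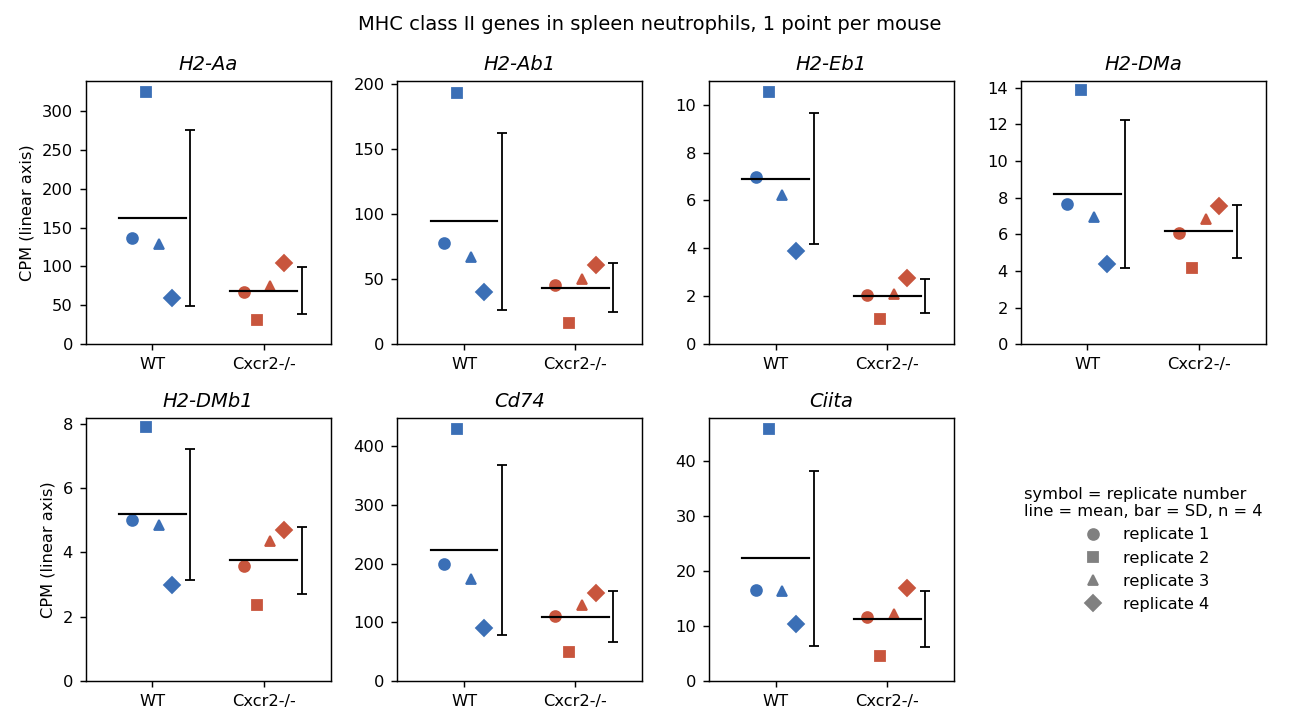
CPM of the 7 members in each library on linear axes from 0, with WT in blue and Cxcr2-/- in red, 1 point per mouse, symbols for the replicate number, a line for the mean and a bar for the SD (n = 4). WT replicate 2 (square) is highest and Cxcr2-/- replicate 2 (square) lowest in all 7 panels, and the groups overlap in every panel but that of H2-Eb1.

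Cd74, the invariant chain, was the most abundant member. It had 200, 430, 173 and 90.8 CPM in the WT libraries and 111, 48.5, 129 and 149 CPM in the Cxcr2-/- libraries. The libraries stood in the same order as for H2-Aa. The difference had a log2 fold change of -1.03 (SE 0.41) and missed the threshold (adjusted p = 0.0556 in edgeR). Cd74 passed without WT replicate 4 (adjusted p = 0.0136) or Cxcr2-/- replicate 4 (0.0357).

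Ciita (chr16:10480059-10528418, plus strand) had 16.6, 45.7, 16.4 and 10.3 CPM in the WT libraries. In the Cxcr2-/- libraries it had 11.6, 4.54, 12.2 and 16.8 CPM. Cxcr2-/- replicate 4 lay above every WT library but replicate 2. Its log2 fold change of -0.98 (SE 0.43, adjusted p = 0.0804 in edgeR) was not called, and it was -0.38 without WT replicate 2. Ciita passed without WT replicate 4 (adjusted p = 0.0341) or Cxcr2-/- replicate 4 (0.0383).

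The H2-DM chains, which load peptides inside the cell, showed the smallest differences. H2-DMa (chr17:34119541-34139101, plus strand) had 7.63, 13.9, 6.92 and 4.37 CPM in the WT libraries and 6.09, 4.15, 6.84 and 7.54 CPM in the Cxcr2-/- libraries, with a log2 fold change of -0.42 (SE 0.30, adjusted p = 0.276 in edgeR). H2-DMb1 (chr17:34153072-34160230, plus strand) had 5.02, 7.92, 4.86 and 2.98 CPM against 3.56, 2.35, 4.37 and 4.71 CPM, with a log2 fold change of -0.47 (SE 0.28, adjusted p = 0.20 in edgeR). Neither was called with any library left out. H2-DMb1 has a near copy, H2-DMb2, and 7.95% of the stretches of 120 bases in its annotated transcripts also occur in those of H2-DMb2, so the reads of these 2 genes are partly uncertain.

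In all, 2 of the 7 members were called lower in Cxcr2-/- libraries and 0 higher, against 21% and 23.7% of all genes. DESeq2 called 1 member lower, against 17.3% of all genes it tested. The median log2 fold change of the 7 members was -1.03, and that of all genes tested was 0.01. Every member had a negative change in the main fit. The number of members called moved between 1 and 5 when single libraries were left out. It was 5 without WT replicate 4 or without Cxcr2-/- replicate 4, and 1 without WT replicate 1, WT replicate 2 or any one of Cxcr2-/- replicates 1 to 3. In the fits with 1 library left out, 17.8% to 20.5% of all genes were called lower.

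**Figure D2:**
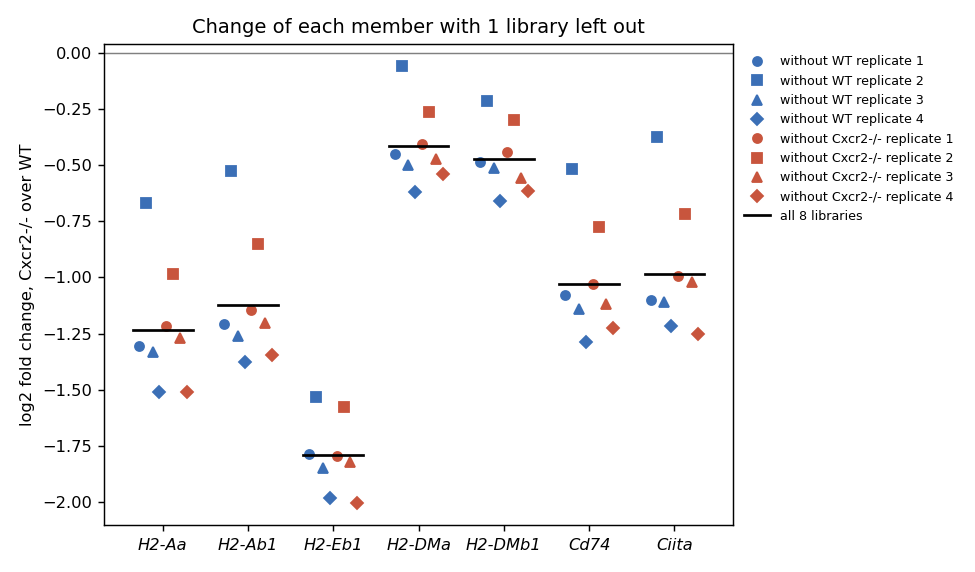
Log2 fold change (Cxcr2-/- over WT) of each member in 8 edgeR fits that each leave out 1 library (blue for WT libraries, red for Cxcr2-/- libraries, symbol for the replicate number), with a black line for the fit on all 8 libraries. Leaving out WT replicate 2 gives the change nearest to 0 for every member, -0.06 for H2-DMa and -1.53 for H2-Eb1.

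Levels of different genes were compared per kilobase of exon. On that scale Cd74 had 133 ± 86.5 CPM per kb in WT and 65.2 ± 25.9 in Cxcr2-/- libraries (mean ± SD, n = 4). H2-Aa followed with 42.7 ± 29.8 and 18.2 ± 7.91 CPM per kb, and H2-Ab1 with 36.8 ± 26.4 and 16.9 ± 7.36. Within a library H2-Aa exceeded H2-Ab1 per kb in 4 of 4 WT but in 2 of 4 Cxcr2-/- libraries, with a ratio of 0.995 to 1.29. The remaining members were an order lower, with WT means of 3.55 ± 1.41 for H2-Eb1, 3.09 ± 1.21 for H2-DMb1, 2.38 ± 1.17 for H2-DMa and 2.34 ± 1.67 CPM per kb for Ciita. In Cxcr2-/- libraries H2-Eb1 had 1.03 ± 0.365 CPM per kb, and H2-DMb1, H2-DMa and Ciita had 2.23 ± 0.625, 1.79 ± 0.423 and 1.18 ± 0.531. The SDs hold the variation that the members share between libraries, so the order was also read within each library. H2-Eb1 exceeded H2-DMb1 per kb in 4 of 4 WT and in 0 of 4 Cxcr2-/- libraries. H2-DMb1 exceeded H2-DMa in 4 of 4 libraries of either genotype, and H2-DMa exceeded Ciita in 3 of 4 WT and 4 of 4 Cxcr2-/- libraries. Class II chains vary in sequence between mouse strains, and the reads of these FVB mice were aligned to the C57BL/6 reference, which can lower the count of the variable chains. The size of that loss was not tested.

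The members moved as a set from library to library. All 7 were highest in WT replicate 2 and lowest in Cxcr2-/- replicate 2. H2-Aa, H2-Ab1, H2-DMb1 and Cd74 shared one order of the 8 libraries, from Cxcr2-/- replicate 2 through WT replicate 4, Cxcr2-/- replicates 1, 3 and 4 and WT replicates 3 and 1 to WT replicate 2. The highest library exceeded the lowest 10.5-fold for H2-Aa, 11.6-fold for H2-Ab1, 10.00-fold for H2-Eb1, 8.86-fold for Cd74 and 10.1-fold for Ciita. H2-DMa and H2-DMb1 spanned less, 3.34-fold and 3.37-fold. Within the WT group WT replicate 2 lay 2.51-fold above the median of the other 3 libraries for H2-Aa, 2.88-fold for H2-Ab1, 2.79-fold for Ciita and 1.69-fold for H2-Eb1.

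Ratios within a library removed most of that spread for some members. The ratio of H2-Ab1 to H2-Aa stayed between 0.523 and 0.679 over the 8 libraries, that of Cd74 to H2-Aa between 1.33 and 1.74, and that of Ciita to H2-Aa between 0.121 and 0.175. These ratios spanned 1.3-fold, 1.31-fold and 1.45-fold, where the levels themselves spanned 8.86-fold to 11.6-fold. H2-Eb1 kept its ratio to H2-Aa less well, from 0.0325 to 0.0661 in WT and from 0.0267 to 0.0342 in Cxcr2-/- libraries. The ratio of H2-DMa to H2-Aa ran from 0.0429 to 0.0740 in WT and from 0.0726 to 0.135 in Cxcr2-/- libraries, and that of H2-DMb1 from 0.0245 to 0.0505 and from 0.0454 to 0.0765. The groups overlapped in all of these ratios.

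Other chains of the class II region were also lower. All 5 that were found in the count tables and tested were called lower in Cxcr2-/- libraries and 0 higher, with a median log2 fold change of -1.47, against 21% and 23.7% of all genes, and DESeq2 also called 5. H2-Oa and H2-Ob form H2-O, an inhibitor of H2-DM that is best known from B cells. H2-Ob fell from 12.5, 25.1, 9.73 and 6.36 CPM in WT to 4.83, 2.68, 5.24 and 6.71 CPM (log2 fold change -1.47, adjusted p = 0.00623 in edgeR), with WT replicate 4 below Cxcr2-/- replicate 4. H2-Oa fell by 1.36 on the log2 scale (adjusted p = 0.0167). H2-Eb2, a second E beta gene, fell by 1.77 (adjusted p = 0.00172), and its groups did not overlap.

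H2-Ea-ps, the alpha gene of I-E, which the annotation lists as a polymorphic pseudogene, also separated the groups. It had 7.23, 22.8, 7.32 and 3.73 CPM in the WT libraries and 2.75, 1.83, 2.97 and 3.65 CPM in the Cxcr2-/- libraries. WT replicate 4 and Cxcr2-/- replicate 4 lay side by side at the border between the groups. Its log2 fold change was -1.88 (SE 0.45, adjusted p = 0.00456 in edgeR). H2-DMb2 fell by 0.48 (adjusted p = 0.0483). Without WT replicate 2 the chains called numbered 3, H2-Eb2, H2-Ea-ps and H2-Ob, with changes of -1.38, -1.14 and -1.0 on the log2 scale.

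**Figure D3:**
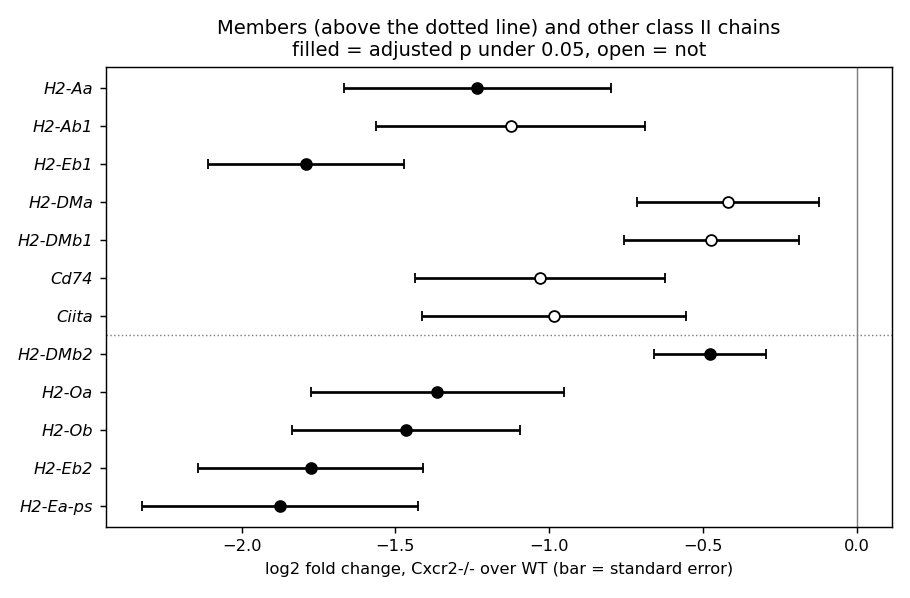
Log2 fold change (Cxcr2-/- over WT) with its standard error for the 7 members and, under the dotted line, 5 other class II chains, from edgeR on 8 libraries. Filled points had an adjusted p under 0.05, and H2-Ea-ps, H2-Eb1 and H2-Eb2 lie farthest from 0 at -1.88, -1.79 and -1.77.

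Of 7 genes of class II loading and turnover, 2 were called lower and 0 higher (4 of 7 changes were negative). With 21% and 23.7% of all genes called in these directions, the list as a whole gives no result. Lgmn, an endosomal protease, fell by 0.67 on the log2 scale (adjusted p = 0.00453). March1, a ubiquitin ligase that takes class II molecules off the cell surface, had 272, 218, 259 and 259 CPM in WT and 139, 168, 156 and 176 CPM in Cxcr2-/- libraries and fell by 0.66 (adjusted p = 2.85e-04 in edgeR). Its order of libraries was not that of the class II chains, since WT replicate 2 was the lowest WT library. Ctss, the protease that makes the last cut in Cd74, had a change of 0.32 (adjusted p = 0.344), and Sppl2a one of 0.09 (adjusted p = 0.387).

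Among 17 genes of the factors that work with Ciita and of the interferon gamma pathway, which induces it, 5 were called lower and 2 higher. With 21% and 23.7% of all genes called in these directions, the count is no result about the list, and the genes below are given singly. The RFX complex did not move together, as Rfxap fell by 0.38 (adjusted p = 0.0475) while Rfxank rose by 0.64 (adjusted p = 0.00458) on the log2 scale and Rfx5 was not called (-0.35, adjusted p = 0.189). Nfyb, a subunit of NF-Y, rose from 26.6, 23.2, 23.3 and 22.6 CPM to 45.7, 45.1, 39.4 and 35.7 CPM (log2 fold change 0.79, adjusted p = 6.36e-05 in edgeR), with no overlap between the groups. Jak1 and Jak2, kinases of the interferon gamma receptor, fell by 0.41 and 0.45 (adjusted p = 0.00554 and 0.00116). Irf1, a target of that receptor which acts on a Ciita promoter, fell by 0.76 (adjusted p = 0.0133). The receptor chains Ifngr1 and Ifngr2 had changes of 0.21 and -0.04 and were not called. Without WT replicate 2 the genes called lower numbered 3, Jak1, Jak2 and Irf1.

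Costimulatory and coinhibitory molecules act beside class II on the antigen-presenting cell. Of 7 genes of both kinds 6 were called lower and 0 higher, against 21% and 23.7% of all genes, and Cd40 was the one not called. Cd80 had 71.0, 99.5, 85.9 and 80.4 CPM in the WT libraries and 15.1, 12.5, 17.6 and 18.8 CPM in the Cxcr2-/- libraries, a log2 fold change of -2.4 (SE 0.14, adjusted p = 1.60e-07 in edgeR). No Cxcr2-/- library came near the WT range, and WT replicate 2 stood far less apart than for the class II chains. Cd86, the second ligand of CD28, fell by 0.49 (adjusted p = 0.00278). Cd83, which keeps class II on the surface of dendritic cells, had 3.52, 6.47, 2.99 and 1.07 CPM in WT and 1.16, 0.498, 1.22 and 1.85 CPM in Cxcr2-/- libraries (log2 fold change -1.57, adjusted p = 0.0161), which is the library order of the class II chains with overlap at WT replicate 4. Cd83 was not called without WT replicate 2.

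The 12 B cell markers summed to 135, 76.6, 109 and 82.0 CPM in the WT libraries and to 37.2, 35, 55.9 and 69.6 CPM in the Cxcr2-/- libraries. The groups did not overlap (exact permutation test on log2, two-sided, p = 0.0286, the smallest that 4 against 4 can give, and 0.0571 after adjustment over 10 marker lists). By the test across all genes 10 of the 12 markers were called lower and 0 higher, against 21% and 23.7% of all genes. Ms4a1 fell by 1.34 and Pax5 by 1.18 on the log2 scale, and none of the 12 was at 0 in all libraries. WT replicate 2, the library with the most class II RNA, held the least B cell RNA of the WT libraries.

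Of the 10 dendritic cell markers 9 were tested, with 4 called lower and 0 higher, against 21% and 23.7% of all genes. The 10 summed to 492 to 733 CPM in WT and 118 to 174 CPM in Cxcr2-/- libraries. Itgax (CD11c) made 95.3% of that level. The other 9 genes, among them Flt3, Zbtb46, Xcr1, Clec9a and Batf3, summed to 19.2, 42.1, 15.8 and 15.7 CPM in WT and 11.0, 8.99, 13.5 and 16.9 CPM in Cxcr2-/- libraries, so that WT replicate 2 was highest, Cxcr2-/- replicate 2 lowest and the groups overlapped. The trimmed list was formed after its values were seen and was not tested. Batf3 and Zbtb46, transcription factors of conventional dendritic cells, fell by 1.91 and 1.09 on the log2 scale (adjusted p = 7.56e-05 and 0.0286 in edgeR), and Flt3 was not called (-1.24, adjusted p = 0.108).

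The 13 macrophage and monocyte markers summed to 710 to 831 CPM in WT and 854 to 989 CPM in Cxcr2-/- libraries, higher as a sum (0.30 on the log2 scale). The direction depended on the summary, since the mean of log2(CPM + 1) differed by -0.0779 and 7 of the 13 genes had a negative change, with a median of -0.88. Of these genes 3 were called higher and 2 lower, beside 23.7% and 21% of all genes, so the count gives no result about the list. Ly6c2, listed here as a marker of monocytes, made 52.0% of the level and rose by 1.40 on the log2 scale. The neutrophil marker Ly6g rose by 1.26. Which cells the RNA of Ly6c2 came from was not tested. Ccr2 rose by 1.72, and Csf1r and Adgre1 fell by 0.93 and 1.31. The 6 genes Vcam1, Spic, C1qa, C1qb, C1qc and Cd5l, known from macrophages of the red pulp, summed to 10.6, 45, 13.8 and 2.4 CPM in WT and 5.84, 2.77, 9.89 and 14.6 CPM in Cxcr2-/- libraries. This group, also picked after its values were seen and not tested, was again highest in WT replicate 2 and was lowest in WT replicate 4. Other macrophage genes of the list, left out of the group, went otherwise. Mertk rose by 1.09 (adjusted p = 0.00603 in edgeR), from 0.983 to 2.49 CPM in WT to 2.88 to 4.545 CPM in Cxcr2-/- libraries. Adgre1 had 26.6 to 36.5 CPM in WT and 9.60 to 16.3 CPM in Cxcr2-/- libraries, also without overlap.

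**Figure D4:**
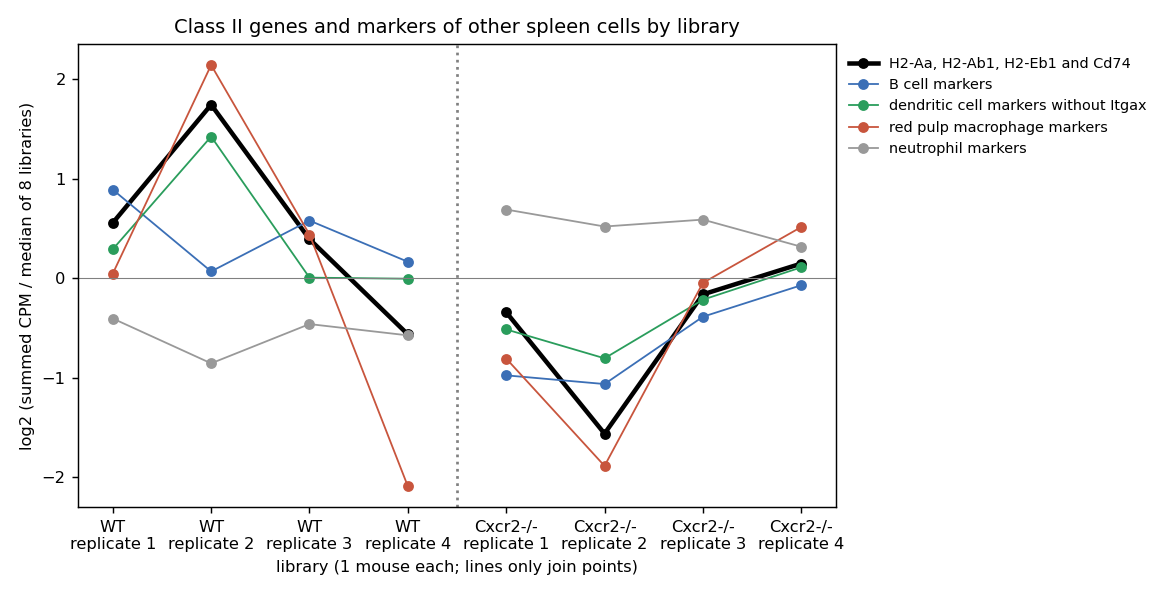
Summed CPM of H2-Aa, H2-Ab1, H2-Eb1 and Cd74 (black) and of markers of B cells, dendritic cells without Itgax, red pulp macrophages and neutrophils, each as log2 over its median of the 8 libraries; lines only join points within a genotype. At WT replicate 2 the class II genes stand 1.74 above their median, the trimmed dendritic cell markers 1.42 and the red pulp macrophage markers 2.14, while the B cell markers stand 0.07 above theirs. The trimmed dendritic cell and red pulp macrophage groups were picked after their values were seen.

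The marker lists of other cells were compared in the same way. Of 10 marker lists, 5 had an unadjusted p under 0.05, those of B cells, dendritic cells, macrophages and monocytes, platelets and neutrophils, and 0 passed after adjustment, since 5 of 10 lists at the smallest p of the design give an adjusted p of 0.0571. The log2 difference of the summed level, Cxcr2-/- minus WT, was 1.10 for the neutrophil markers and -0.60 for the platelet markers. The 10 T cell markers summed to 98.4 to 118 CPM in WT and 91.3 to 139 CPM in Cxcr2-/- libraries (adjusted p = 0.83, exact permutation test), of which Cd3d made 94.5%, while Trac, Trbc1 and Trbc2, which define T cells, were at or below 0.563 CPM in every library. Trac, Trbc1, Trbc2, Cd3e and Lck were still each highest in WT replicate 2 (0.482, 0.502, 0.563, 0.563 and 1.085 CPM), on at most 54 counts. The NK cell markers also summed highest there (5.365 CPM). Cd4, which T cells and a subset of spleen dendritic cells express, had 5.17, 14.1, 4.12 and 1.27 CPM in WT and 1.62, 0.553, 1.35 and 1.85 CPM in Cxcr2-/- libraries. Which cells its RNA came from was not tested. Cd4 fell by 2.20 on the log2 scale (adjusted p = 0.00750 in edgeR), with the highest value in WT replicate 2 and the lowest in Cxcr2-/- replicate 2. The 9 T cell markers without Cd3d, of which Cd4 made 62.3%, summed to 7.94, 18.3, 6.23 and 2.49 CPM in WT. In Cxcr2-/- libraries they summed to 3.665, 1.99, 3.56 and 3.99 CPM. This list was formed after its values were seen and was not tested. A peak in WT replicate 2 was thus not particular to dendritic cell or macrophage genes.

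The ratio of a member to a marker list asks whether both change by the same factor. For H2-Aa over the B cell markers the ratio was 1.01, 4.22, 1.18 and 0.720 in the WT libraries and 1.81, 0.878, 1.33 and 1.49 in the Cxcr2-/- libraries. The log2 difference between the genotypes was -0.05 (two-sided exact permutation test over 4 mice of each genotype, p = 0.943), but the ratio spanned 5.86-fold over the libraries because of WT replicate 2. Over the dendritic cell markers without Itgax the ratio of H2-Aa was 7.11, 7.69, 8.17 and 3.77 in WT and 6.10, 3.42, 5.49 and 6.13 in Cxcr2-/- libraries. It spanned 2.39-fold, and WT replicate 2 did not stand out. The T cell list without Cd3d also peaked in WT replicate 2, and ratios over that list were not computed. Over the red pulp macrophage markers the span was 3.46-fold, with the extreme at WT replicate 4.

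The dendritic cell list without Itgax was formed after its values were seen, so ratios over it are a description and were not tested. H2-Eb1 over the dendritic cell markers without Itgax was 0.250 to 0.395 in WT and 0.117 to 0.186 in Cxcr2-/- libraries, with no overlap. H2-DMa over the same markers was 0.279 to 0.439 in WT and 0.445 to 0.554 in Cxcr2-/- libraries, with no overlap in the other direction. H2-DMb1 over these markers overlapped, with 0.188 to 0.3085 in WT and 0.2615 to 0.324 in Cxcr2-/- libraries. The share of all genes that separate over this list was not computed. There were 21 ratios of a member to the B cell, the whole dendritic cell or the macrophage and monocyte list. Of these, 0 passed an exact permutation test after adjustment (lowest adjusted p = 0.150). An unadjusted p under 0.05 was found for 3, H2-DMa and H2-DMb1 over the dendritic cell list and H2-Eb1 over the macrophage and monocyte list. With the mean of log2(CPM + 1) as the summary, the same test gave unadjusted p = 0.20 for H2-DMa and 0.229 for H2-DMb1. H2-Eb1 kept 0.0286.

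Because the summed levels of the B cell, dendritic cell, and macrophage and monocyte markers each separated the genotypes, marker level and genotype cannot be told apart in a relation over the 8 libraries, and none was tested. With the B cell level as a covariate 0 members were called, beside 10.9% of all genes called lower. H2-Eb1 then had a change of -1.43 on the log2 scale (SE 0.50, adjusted p = 0.0568 in edgeR). The macrophage and monocyte level, of which Ly6c2 made 52.0%, left H2-Eb1 alone called (adjusted p = 0.0341 in edgeR), beside 6.33% of all genes lower. The dendritic cell level, of which Itgax made 95.3%, left 0 members called, beside 0.0119% of all genes called lower. The estimates had standard errors of 1.24 to 1.74, since 2.07 on the log2 scale separates the genotypes in that covariate. Since each of these levels separates the genotypes, the fits cannot decide the part of these cell types in the differences, which was not tested.

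The genes whose pattern over the libraries was most like that of the class II chains were found among the 11123 genes whose mean log2 CPM was 1 or more, by Pearson's r with the log2 of the summed CPM of H2-Aa, H2-Ab1, H2-Eb1 and Cd74 over 8 libraries. The 10 closest were Sash1 (r = 0.989), Rgl1 (0.986), Flt3 (0.984), Rtn1 (0.981), Dpp4 (0.981), Cd83 (0.979), Vav2 (0.977), Slc46a3 (0.974), Hap1 (0.973) and Cd4 (0.971). Flt3 is the receptor on which dendritic cell growth depends. For Ciita the 5 closest were Flt3 (0.994), Sash1 (0.982), Dpp4 (0.969), Rgl1 (0.969) and Tsc22d1 (0.966). The values share depth, the scaling and the 2 libraries at the ends of the range. Each r also mixes the difference between the genotypes with the variation between mice, so it is a description without a test. Without WT replicate 2 and Cxcr2-/- replicate 2 the r of the 10 genes was 0.871 to 0.993 over 6 libraries and that of Tsc22d1 with Ciita 0.563.

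By list, the median r with the class II chains was 0.966 for 4 other class II chains and 0.784 for 6 dendritic cell markers (range 0.360 to 0.984). For 11 B cell markers it was 0.538 (0.140 to 0.725) and for 8 macrophage and monocyte markers 0.424 (-0.628 to 0.9465). For 10 neutrophil markers it was -0.659, beside -0.13 for all 11123 genes. The summed neutrophil, B cell, dendritic cell, and macrophage and monocyte markers each separated the genotypes. These medians therefore hold the genotype difference too and do not rank the cell types. Among the B cell markers the highest r was 0.725, for Cd22. Flt3 itself had 3.01, 10.2, 2.67 and 1.27 CPM in WT and 2.02, 0.443, 1.78 and 3.04 CPM in Cxcr2-/- libraries. Cd22, an inhibitory receptor of B cells, had 10.3, 8.28, 9.33 and 8.45 CPM in WT and 4.4, 2.46, 7.04 and 8.19 CPM in Cxcr2-/- libraries. WT replicate 2, the library with the most class II RNA, was the highest for Flt3 and the lowest of the WT libraries for Cd22. Flt3 was picked for its high r, so its place there follows from that choice. Other dendritic cell markers differed, as Xcr1 was highest in WT replicate 4 (0.868 CPM). Of 9 dendritic cell markers tested, 7 had a negative change, while Clec10a (0.83) and Ccr9 (0.72) had positive changes on the log2 scale and were not called.

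**Figure D5:**
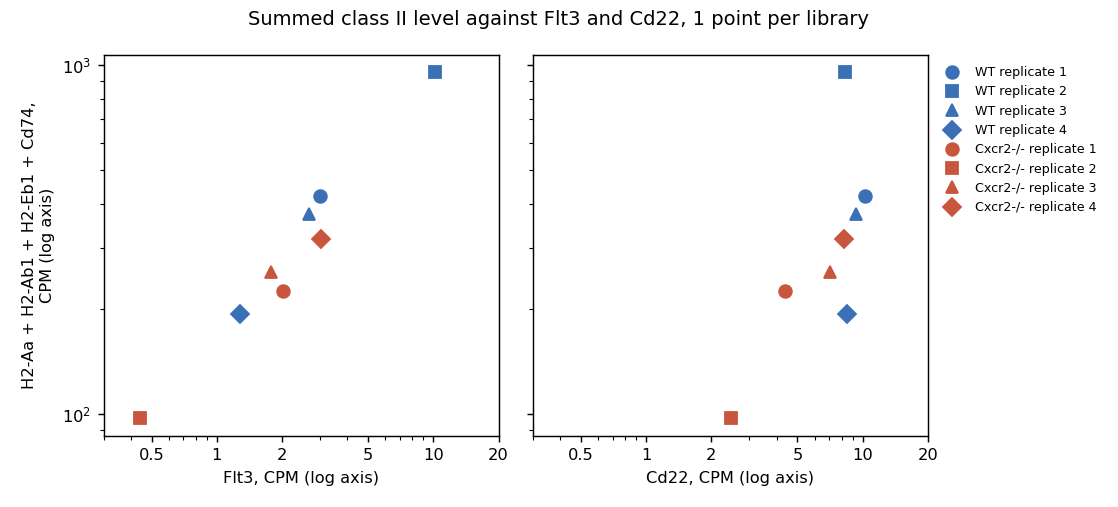
Summed CPM of H2-Aa, H2-Ab1, H2-Eb1 and Cd74 against the CPM of Flt3 (left) and Cd22 (right) in each library, both axes logarithmic, WT in blue and Cxcr2-/- in red. With Flt3 WT replicate 2 (blue square, 10.2 CPM) ends the row of points, and with Cd22 (8.28 CPM) it lies above points with more of that marker. Flt3 was picked from the genes of highest r, and Cd22 as the B cell marker of highest r.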

How the data were processed

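RNA of sorted spleen neutrophils was depleted of ribosomal RNA, made into strand-specific libraries and sequenced from both ends by the authors. After trimming, reads were aligned with STAR to mm10 and assigned to genes with HTSeq, and the authors deposited whole-number counts per gene and mouse, without normalization. The strand setting of the counting is not given in the sources used here, so overlapping genes are uncertain. Symbols, positions and exon lengths were taken from GENCODE M21 (GRCm38) by identifier without version. An entry was found for 52133 of 55414 identifiers, 35 of them with the version of M21, and 1.42% of the counts lay on genes without one.

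Counts were compared in R 4.3.3 with edgeR 4.0.16 (limma 3.58.1) by the quasi-likelihood test, with TMM, the filterByExpr filter and Benjamini-Hochberg adjustment over 16778 genes. Variation between mice (biological coefficient of variation) was 0.202 over all genes, while the CPM of the 7 members had a coefficient of variation of 39.2% to 71.8% among the WT libraries. The steps were tested on simulated data, in which all genes had the same dispersion and varied independently. Those data do not imitate the larger variation that the members share. Marker lists and ratios were tested on 1 value per library with exact permutation tests, two-sided, which cannot go below 0.0286 for 4 mice against 4. P-values set the difference between these 2 groups against the variation between their mice, which edgeR estimates with the help of other genes. Figures and permutation tests used Python 3.11.15.

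The genes named were the 7 members, genes of the pathway and marker lists where a list is discussed, and the 10 and 5 genes of the most similar pattern. Members and lists were chosen with earlier results of these data known. The alternatives were DESeq2 1.42.0, RLE, upper-quartile and total-count scaling, no filter or at least 10 counts in every library, a replicate block, the B cell, dendritic cell, and macrophage and monocyte levels as covariates, another summary of the marker lists (mean of log2(CPM + 1)), and each library left out in turn. The dendritic cell list without Itgax, the red pulp macrophage genes and the T cell list without Cd3d were chosen after seeing the data.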

Additional observations from a re-analysis of the deposited data

Results flagged for a closer look

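Of 34 groups of 4 libraries tested for a library far from the rest (each member and each marker list in each genotype), 2 held one, and chance flags about 1 in 20 groups. WT replicate 1 had 831 CPM summed over the macrophage and monocyte markers, where the other WT libraries had 710 to 728 CPM. Cxcr2-/- replicate 1 had 15.1 CPM summed over the platelet markers, where the other Cxcr2-/- libraries had 10.3 to 10.9 CPM. WT replicate 2, which was highest for all 7 members, was not far enough from the other WT libraries to be singled out by this measure for any member.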

How the results depend on the processing

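Under every alternative but the dendritic cell covariate each member kept a negative change (119 of 119 values). With that covariate the log2 changes were 2.42 for H2-Aa, 2.72 for H2-Ab1, 0.42 for H2-Eb1, 2.04 for H2-DMa, 1.64 for H2-DMb1, 2.33 for Cd74 and 3.01 for Ciita, with adjusted p of 0.583 to 0.939. Members called lower numbered 4 with RLE scaling (beside 21.8% of all genes), 4 with upper-quartile scaling (26.2%), 5 with no filter (12.5%) and 4 with at least 10 counts in every library (23.7%). They numbered 1 with DESeq2 (17.3%), 1 with the macrophage and monocyte covariate (6.33%), 0 with the B cell covariate (10.9%) and 0 with the dendritic cell covariate (0.0119%). The H2-Aa call was lost with the B cell covariate (-0.96), the macrophage and monocyte covariate (-1.91) and DESeq2 (-1.24), and that of H2-Eb1 with the B cell covariate (-1.43). H2-Ab1 passed with RLE (-1.14), upper-quartile (-1.24), no filter (-1.15) and at least 10 counts (-1.16), Cd74 under the same settings (-1.05, -1.15, -1.05 and -1.06), and Ciita with no filter (-1.0); the cause was not tested. Upper-quartile scaling moved the median log2 change of all genes from 0.01 to -0.11 and called 4391 genes lower and 3076 higher, against 3526 and 3969, and its changes are to be read relative to that median. The same replicate number marks different mice in the 2 groups, and the deviations of same-numbered libraries correlated at 0.116, -0.188, 0.158 and -0.262, so the numbers do not pair the samples and not every library correlated best with its own number. With the replicate block 1 member was called, H2-Aa had a change of -1.06 (adjusted p = 0.145), and 3 other class II chains were called lower. With 1 library left out the members called lower ranged from 1 to 5, and the changes from -1.51 to -0.67 for H2-Aa, -1.38 to -0.53 for H2-Ab1, -2.0 to -1.53 for H2-Eb1, -1.29 to -0.52 for Cd74 and -1.25 to -0.38 for Ciita. Other class II chains called lower then ranged from 3 to 5, and genes of the Ciita partners and interferon gamma list called lower from 3 to 5. As a mean of log2(CPM + 1), the difference of the macrophage and monocyte markers was -0.0779, of the T cell markers -0.18 and of the eosinophil markers 0.26, and the ratio differences were -0.15 for H2-Ab1 and -0.0575 for Cd74 over the B cell markers and -0.53, -0.45, -0.81, -0.36 and -0.27 for H2-Aa, H2-Ab1, H2-Eb1, Cd74 and Ciita over the dendritic cell markers, each with the sign opposite to that of the sums. The T cell markers changed sign with total-count scaling too (-0.0546), and over single libraries left out they ranged from -0.0765 to 0.13. Over the B cell markers the ratio differences then ranged from -0.36 to 0.49 for H2-Aa, -0.22 to 0.57 for H2-Ab1, -0.15 to 0.63 for Cd74 and -0.0649 to 0.70 for Ciita, and none of these was past the threshold. The relation across libraries planned for the marker levels was not run, for the reason given with the marker lists. Among the class II chains H2-Eb2 (17 counts in its lowest library), H2-Oa (29) and H2-Eb1 (38) rest on the fewest reads.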

Other observations

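Immunoglobulin genes, which B cells and plasma cells make, moved in both directions. Ighm had 85.0, 40.7, 69.6 and 50.9 CPM in the WT libraries and 16.1, 15.5, 27.7 and 36.3 CPM in the Cxcr2-/- libraries, with no overlap, and the lowest WT value was that of WT replicate 2. Jchain, which joins the subunits of secreted immunoglobulins, had 2.43, 2.05, 1.52 and 0.347 CPM in WT and 2.71, 3.93, 4.27 and 6.49 CPM in Cxcr2-/- libraries, also with no overlap, in the opposite direction. Of 7 genes of this list tested, 3 were called lower and 1 higher, beside 21% and 23.7% of all genes. The count is therefore no result about the list. The summed level of the list did not pass the exact permutation test (p = 0.0571, adjusted p = 0.0952).

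The coinhibitory ligands Cd274 (PD-L1) and Pdcd1lg2 (PD-L2), counted above with the costimulatory molecules, were lower in Cxcr2-/- libraries. Cd274 had 38.0, 68.9, 36.6 and 44.2 CPM in WT and 40.7, 12.1, 11.6 and 16.7 CPM in Cxcr2-/- libraries, where Cxcr2-/- replicate 1 alone lay in the WT range (log2 fold change -1.21, adjusted p = 0.0141 in edgeR). Pdcd1lg2 had 1.24 to 2.71 CPM in WT and 0.526 to 0.940 CPM in Cxcr2-/- libraries (log2 fold change -1.38, adjusted p = 0.00274 in edgeR).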
